A study of Homo sapiens with 18 samples.

Results

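The genes described here are OXTR, PTGER4, ABTB2, MKNK2, TCFL5, TNFAIP6 and SLC12A4, 7 of the 56609 gene symbols counted in the CLL cell lines HG3, MEC2 and PCL12. They were selected on their measured response, the log2 ratio between libraries with and without CpG, which was above 0 in MEC2 or in PCL12 with a call in at least 1 earlier fit of these libraries, paired or not. Their responses in MEC2 and PCL12 are therefore given as a description without P values, where the number of genes that meet a definition of change restates the selection. Only the response in HG3, which was not used to pick them, is reported as a test. All 7 were among the 31872 genes that passed the filter of at least 10 counts summed over the 18 libraries.

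The 18 libraries fall into 6 groups of 3: unstimulated HG3, MEC2 and PCL12 cells, and cells of each line kept for 4 h with the TLR9 ligand CpG ODN-2006 at 2.5 μg/mL. All 3 are EBV-positive B-cell lines, each a single line, with unmutated IGHV genes in HG3 and PCL12 and mutated ones in MEC2. Nothing states that the 3 samples of a group were separate cultures, so P values concern these samples only. In the fits of all 18 libraries each gene has 1 dispersion, so the spread is pooled over the 3 lines. A library held 20382943 to 67308932 counts (median 34187429), and levels are given as CPM, counts scaled to the TMM-adjusted size of the library. For the cell type markers and the sets of genes typical of a line, CPM is scaled to the library total without TMM. A count of 0 allows a level of up to 0.0429 to 0.155 CPM, the worth of 3 counts, which covers counting error only. The B-cell markers MS4A1, CD79A, CD79B, PAX5 and CD22 had counts in every library, with MS4A1 at 597 to 1712 CPM and CD79A at 200.3 to 1002 CPM, while T-cell markers summed to at most 2.42 CPM and monocyte markers to at most 2.31 CPM. Epithelial markers summed to at most 21.4 CPM, and of the fibroblast markers COL1A1 stood at 5.25 to 74.4 CPM while COL1A2 and DCN did not pass 0.45 CPM. CD5, a defining antigen of CLL, stood at 21.8 to 64.7 CPM in HG3 but at 0.417 CPM or less in MEC2 and 1.38 CPM or less in PCL12. FCER2 (CD23), another CLL surface antigen, was abundant in all 3 lines, at 1443 to 2966 CPM in HG3, 285 to 516 CPM in MEC2 and 309.7 to 752 CPM in PCL12. The libraries of HG3 replicate 2 without CpG and of MEC2 replicate 2 with CpG were rich in mitochondrial reads, with shares of 20.2% and 19.7%, while the other libraries had 2.82% to 9.28%.

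The PCL12 libraries of replicates 2 and 3 stood apart from replicate 1. A set of 45 genes with 20 CPM or more throughout MEC2, but no more than 10% of the MEC2 mean in PCL12 replicate 1, reached, as a median, 29.0% to 31.3% of the MEC2 mean in the 4 libraries of replicates 2 and 3, against 2.26% to 2.36% in replicate 1. For 41 genes typical of HG3 the same libraries reached 1.15% or less of the HG3 mean. Conversely, 32 genes of PCL12 replicate 1 that were low in MEC2 stood at 67.7% to 79.5% of their replicate 1 level in those 4 libraries. Whether material of MEC2 was mixed into PCL12 replicates 2 and 3 was not tested, and their values may not be those of PCL12 cells alone, so the level of each of the 7 genes in PCL12 replicate 1 is given beside any mean over the 3 replicates. Bulk counts cannot tell fewer cells of a kind from less RNA per cell.

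TLR9 is an endosomal receptor for DNA with unmethylated CpG motifs, and through MYD88 and IRAK kinases it activates NF-κB and MAP kinases in B cells. The 7 genes belong to no single pathway. OXTR and PTGER4 are receptors at the cell surface, for oxytocin and for prostaglandin E2. MKNK2 is a kinase downstream of ERK and p38 that phosphorylates the cap-binding factor eIF4E, TCFL5 is a transcription factor of the bHLH class, and ABTB2 is a protein with ankyrin repeats and a BTB domain. TNFAIP6 encodes the secreted hyaluronan-binding protein TSG-6, and SLC12A4 the potassium-chloride cotransporter KCC1.

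The sequence before the start site differed widely among the 7 genes. RefSeq (GRCh38.p14) listed at least 1 start for each of the 7 genes, and the most upstream of these was taken. For SLC12A4 that start lies inside the gene as GENCODE draws it, which reaches from 67943474 to 67969601, so its window (chr16:67968695-67968944) is not upstream of every annotated transcript. Over the 250 bases before it, G and C made up 34.4% in TNFAIP6, 42.0% in OXTR, 68.4% in SLC12A4, 70.4% in ABTB2, 72.8% in PTGER4, 77.2% in MKNK2 and 82.8% in TCFL5, beside a median of 58.0% over 35116 such windows. Both strands were searched for the NF-κB consensus site, the AP-1 site TGANTCA, the core TGACG of the cAMP response element, the E-box CACGTG and the TATA box TATAAA. These were found in 5.21%, 6.57%, 21.2%, 6.34% and 10.7% of all windows. PTGER4 had 1 NF-κB match 244 to 235 bases before the start, TNFAIP6 had 1 AP-1 match at 129 to 123 bases, OXTR had TGACG at 53 to 49 bases, and MKNK2 had TATAAA at 29 to 24 bases. No overlap occurred between these matches, ABTB2, TCFL5 and SLC12A4 held none of the 5 motifs in this window, and a match is a string of letters and not a bound site. The windows of PTGER4 (chr5:40679665-40679914, plus strand), TNFAIP6 (chr2:151357342-151357591, plus strand) and OXTR (chr3:8769629-8769863, minus strand) are shown for their matches, and that of TCFL5 (chr20:62861823-62862072, minus strand) because that gene was higher with CpG in all 9 pairs and its window has no match. They run 5′ to 3′ with matches in capitals, and the last 15 bases before the OXTR start are left out because GENCODE places them in an exon.
PTGER4: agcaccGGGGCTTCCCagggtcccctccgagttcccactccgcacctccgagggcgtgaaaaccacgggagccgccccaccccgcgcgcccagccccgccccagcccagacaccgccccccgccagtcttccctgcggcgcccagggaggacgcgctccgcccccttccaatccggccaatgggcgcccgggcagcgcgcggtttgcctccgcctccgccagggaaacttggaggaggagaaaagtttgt
TNFAIP6: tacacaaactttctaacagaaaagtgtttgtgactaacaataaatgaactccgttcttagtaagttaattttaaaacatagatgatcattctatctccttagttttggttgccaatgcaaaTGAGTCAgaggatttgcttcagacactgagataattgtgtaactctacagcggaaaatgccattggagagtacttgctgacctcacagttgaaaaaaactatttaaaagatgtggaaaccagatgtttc
OXTR: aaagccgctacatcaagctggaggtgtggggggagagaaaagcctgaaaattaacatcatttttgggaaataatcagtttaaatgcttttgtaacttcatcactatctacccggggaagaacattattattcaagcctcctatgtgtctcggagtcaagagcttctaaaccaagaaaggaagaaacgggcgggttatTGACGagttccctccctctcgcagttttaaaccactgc
TCFL5: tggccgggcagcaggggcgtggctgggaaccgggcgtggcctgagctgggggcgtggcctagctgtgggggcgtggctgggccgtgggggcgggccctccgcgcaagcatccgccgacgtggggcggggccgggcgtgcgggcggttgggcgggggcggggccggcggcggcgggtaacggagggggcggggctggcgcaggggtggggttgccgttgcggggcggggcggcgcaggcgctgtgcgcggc

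OXTR (chromosome 3 of GRCh38, 8750381 to 8769628, minus strand), a G protein-coupled receptor, was higher with CpG in MEC2 and abundant in HG3 under both treatments. In MEC2 it stood at 24.1, 23.4 and 41.5 CPM in unstimulated replicates 1, 2 and 3 and at 118, 108 and 78.6 CPM after CpG. Every CpG-stimulated MEC2 library was above every unstimulated one, 102 ± 20.5 against 29.7 ± 10.3 CPM (SD, n = 3 in each group). In HG3 the level was already high without CpG, at 55.0, 77.9 and 76.6 CPM, and it was 67.4, 103 and 87.0 CPM after CpG, so the groups overlapped. PCL12 replicate 1 had little OXTR, 2.05 CPM without and 4.41 CPM with CpG. Replicates 2 and 3 of PCL12 stood at 24.6 and 25.7 CPM without and 51.9 and 33.7 CPM with CpG, far above replicate 1 in both treatments. Among the 6 groups the mean was highest in CpG-stimulated MEC2, followed by CpG-stimulated HG3, unstimulated HG3, CpG-stimulated PCL12, unstimulated MEC2 and unstimulated PCL12. With replicate 1 alone, both PCL12 values would come last. Only the step from unstimulated HG3 to CpG-stimulated PCL12 separated groups whose ranges did not overlap.

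PTGER4 (chromosome 5, 40679915 to 40693735, plus strand) encodes the EP4 receptor, which raises cAMP through a stimulatory G protein. In MEC2 its 3 unstimulated libraries held 5.16, 3.88 and 2.91 CPM and the 3 CpG-stimulated ones 13.6, 9.90 and 6.20 CPM, without overlap. The ratio was even across the MEC2 pairs, whose log2 ratios were 1.39, 1.34 and 1.08. PCL12 started lower, at 0.673, 2.32 and 0.975 CPM, and reached 3.16, 7.15 and 1.70 CPM after CpG, so the groups overlapped although each pair was higher with CpG. The PCL12 log2 ratios were 2.14, 1.60 and 0.77, with the highest value in replicate 1. In HG3 the unstimulated libraries held 3.80, 4.33 and 5.95 CPM and the CpG-stimulated ones 11.3, 4.42 and 8.45 CPM. Replicate 2 of HG3 showed almost no difference (log2 ratio 0.03), unlike replicates 1 and 3 (1.56 and 0.50).

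TCFL5 (chromosome 20, 62841005 to 62861822, minus strand), the bHLH factor, had a log2 ratio above 0 in all 9 pairs, and its treatments did not overlap in HG3 and in MEC2. Its unstimulated level was alike in the 3 lines, 10.4 ± 1.61 CPM in HG3, 9.67 ± 2.09 CPM in MEC2 and 10.1 ± 2.48 CPM in PCL12 (SD, n = 3 in each group), with 7.79 CPM in PCL12 replicate 1. After CpG, the libraries held 19.5, 24.2 and 14.4 CPM in HG3, 33.5, 49.0 and 21.6 CPM in MEC2, and 19.3, 26.8 and 12.3 CPM in PCL12. MEC2 thus had the highest mean after CpG, but its lowest library was below the highest of PCL12 and of HG3. Pair by pair, the log2 ratio was 1.78, 2.69 and 0.88 in MEC2, 1.15, 1.01 and 0.46 in HG3, and 1.30, 1.07 and 0.32 in PCL12. In PCL12 the groups overlapped only through replicate 3 after CpG (12.3 CPM), which was below unstimulated replicate 2 (12.7 CPM).

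MKNK2 (chromosome 19, 2037465 to 2051244, minus strand), the eIF4E kinase, differed between replicate pairs by as much as between treatments. Unstimulated MEC2 held 629.6, 628 and 404 CPM and CpG-stimulated MEC2 1384, 1749 and 552 CPM. Replicate 3 was low in both treatments, so the MEC2 groups overlapped while each pair was higher with CpG, with log2 ratios of 1.14, 1.48 and 0.45. HG3 had 1056, 1395 and 2272 CPM without and 1146, 1426 and 2092 CPM with CpG. There the log2 ratio was -0.12 to 0.12, whereas the mean level of a pair spanned a log2 range of 0.99 (1.15 in MEC2 and 1.20 in PCL12). PCL12 had 904, 1296 and 499 CPM without and 1405, 1489 and 733 CPM with CpG, and the pairs had log2 ratios of 0.64 (replicate 1), 0.20 and 0.55.

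ABTB2 (chromosome 11, 34150987 to 34358010, minus strand) also varied between replicate pairs, and among the 7 genes had the largest fold of group means in MEC2, 4.11. Unstimulated MEC2 held 33.6, 27.7 and 15.0 CPM, and CpG-stimulated MEC2 138, 149 and 26.0 CPM. Replicates 1 and 2 stood far above all unstimulated libraries, and replicate 3 stood below unstimulated replicates 1 and 2. HG3 libraries held 37.3, 17.3 and 77.9 CPM without and 54.7, 53.9 and 73.3 CPM with CpG. Unstimulated HG3 replicate 2, the library rich in mitochondrial counts, was the lowest of these. In PCL12 the values were 28.6, 65.1 and 10.0 CPM without and 57.7, 80.2 and 19.3 CPM with CpG, with a log2 ratio of 1.01 in replicate 1.

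TNFAIP6 (chromosome 2, 151357592 to 151380046, plus strand), the gene of TSG-6, had few reads in every library. In PCL12 it had 0 counts in each unstimulated library and 41, 19 and 16 counts after CpG, a level at least 6.66-fold higher when 3 counts are set as the limit in each unstimulated library. Replicate 1 alone was at least 6.10-fold higher. In MEC2 the counts were 1, 0 and 5 without and 14, 7 and 1 with CpG, so that replicate 3 went the other way. HG3 had the highest level, with 13, 27 and 54 counts without and 16, 43 and 55 with CpG, or 0.286, 1.39 and 1.42 CPM against 0.419, 1.30 and 1.73 CPM. The HG3 groups overlapped almost fully. After CpG, PCL12 stood at 0.606 ± 0.209 CPM (0.587 CPM in replicate 1) and unstimulated HG3 at 1.03 ± 0.647 CPM (SD, n = 3 in each group), 2 ranges that overlapped.

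SLC12A4 (chromosome 16, 67943474 to 67969601, minus strand), the cotransporter KCC1, had a change whose size leaned on 1 library in MEC2 and on 1 in PCL12. In PCL12 it held 36.0, 38.0 and 41.7 CPM without CpG and 127, 54.1 and 58.3 CPM with it. The groups did not overlap, and replicate 1, where the MEC2 set was low, had a log2 ratio of 1.82 against 0.51 and 0.48 in replicates 2 and 3. In MEC2 the values were 20.8, 18.2 and 30.1 CPM without and 37.0, 86.2 and 27.8 CPM with CpG. The high value was in CpG replicate 2, the library with 19.7% mitochondrial counts, and replicate 3 was not higher with CpG (log2 ratio -0.11). HG3 stood at 25.4, 18.9 and 22.7 CPM without and 29.1, 26.9 and 18.9 CPM with CpG. In unstimulated cells PCL12, at 38.6 ± 2.92 CPM and 36.0 CPM in replicate 1, was above MEC2 at 23 ± 6.28 CPM and HG3 at 22.3 ± 3.29 CPM (SD, n = 3 in each group), and its range overlapped with neither.

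**Figure D1:**
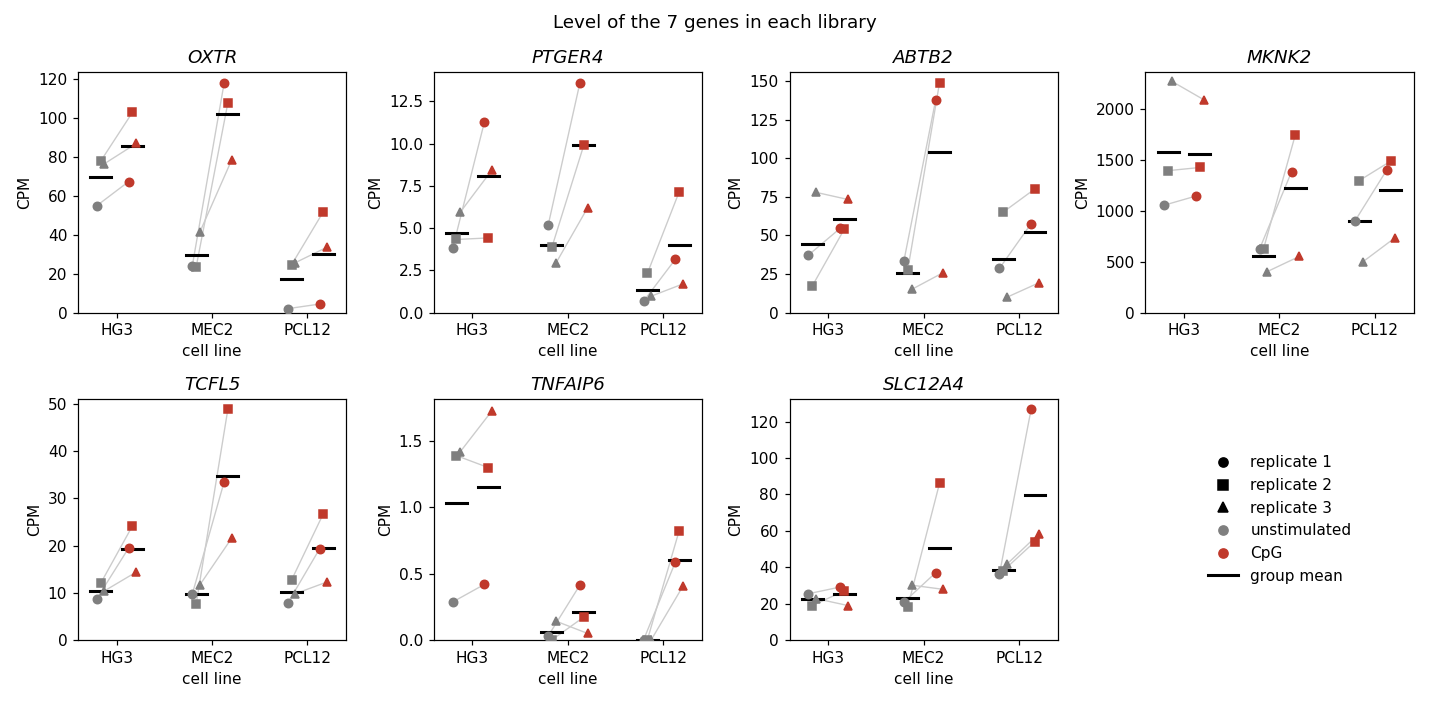
CPM (scaled by TMM, linear axes from 0) of each gene in each of the 18 libraries, with grey points for unstimulated and red for CpG-stimulated cells, symbols for the replicate, thin lines joining libraries of the same replicate number and bars for the mean of 3. OXTR, PTGER4 and TCFL5 are separated in MEC2, TNFAIP6 and SLC12A4 in PCL12, and only TCFL5 in HG3.

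Every library with CpG was above every library without it for 3 of 7 genes in MEC2 and for 2 of 7 in PCL12, beside 2.52% and 2.53% of all tested genes. Over the replicate pairs, 19 of 21 log2 ratios in MEC2, 21 of 21 in PCL12 and 17 of 21 in HG3 were above 0, where 21 stands for 7 genes in 3 pairs. The rule picked genes that rose in MEC2 or PCL12, so the counts of those 2 lines follow in part from it. In HG3 the fitted Log2FC was above 0 for 47.1% of all tested genes. The second HG3 pair had a median ratio of 0.16 over the genes whose mean reached 1 CPM. The 7 genes share the same 3 pairs of a line, so the HG3 count is a description and no test. All 3 pairs were higher with CpG for 5 genes in MEC2, 7 in PCL12 and 3 in HG3, beside 7.82%, 7.94% and 7.08% of all tested genes. Replicate 3 had the smallest ratio for all 7 genes in MEC2, beside 29.0% of the 13991 genes whose mean reached 1 CPM. The same replicate was smallest for 5 of 7 genes in HG3 (29.8% of all genes) and for 5 of 7 in PCL12 (42.9%). The genes were picked on ratios in MEC2 and PCL12, so in these 2 lines the shares of all genes are no like comparison. The median ratio of the 7 genes in MEC2 was 1.78, 2.21 and 0.79 in replicates 1, 2 and 3, and that of all genes was -0.05, 0.06 and -0.02. CpG-stimulated MEC2 replicate 3 was also the library with the fewest counts. The second MEC2 pair, whose CpG library had 19.7% mitochondrial counts, was the widest over all genes, with an SD of the ratio of 0.98 against 0.52 and 0.54, and 14.8% of genes had a ratio above 1 there, against 3.37% and 2.62%. The part of depth and of RNA quality in these ratios was not tested.

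**Figure D2:**
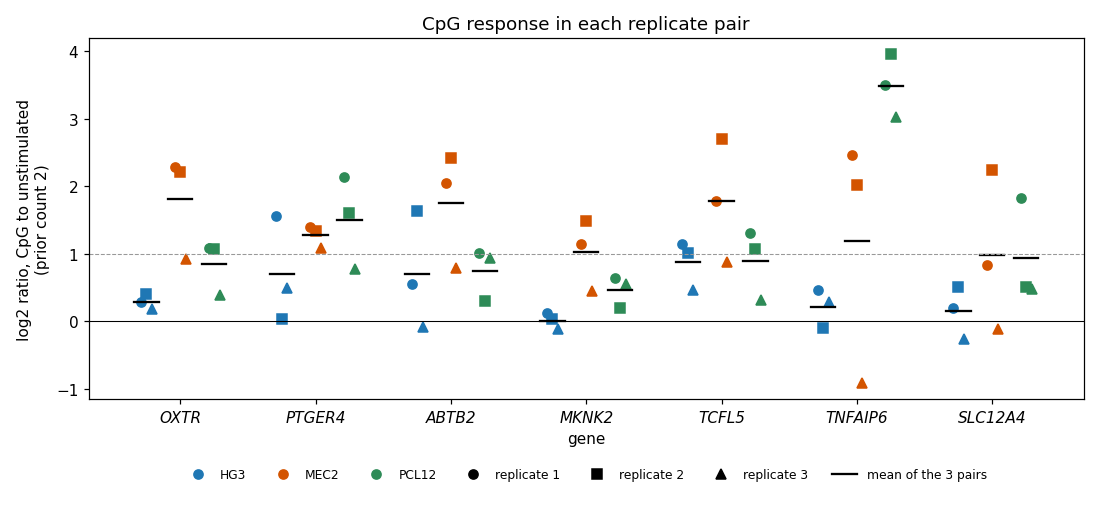
Log2 ratio of CpG-stimulated to unstimulated level (log2 CPM with a prior count of 2) for each gene and replicate pair, in blue for HG3, orange for MEC2 and green for PCL12, with bars for the mean of 3 pairs, a solid line at 0 and a dashed line at 1. The triangle of replicate 3 is the lowest of the 3 orange symbols for every gene, and TNFAIP6 in PCL12 lies highest, between 3.02 and 3.95. Its unstimulated PCL12 libraries had 0 counts, so these values and their rank depend on the prior count.

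The fitted changes of the 7 genes in MEC2 had a median Log2FC of 1.78, beside 0.00 over all tested genes. With edgeR and 1 mean per group, TCFL5 (Log2FC 1.84, SE 0.35), MKNK2 (1.15, SE 0.41) and SLC12A4 (1.13, SE 0.35) met the DEG definition of a nominal P value under 0.01 and |Log2FC| ≥ 1, 3 of 7 genes beside 0.182% of all tested genes called as upregulated. OXTR (1.78, SE 0.81), ABTB2 (2.04, SE 0.80), PTGER4 (1.32, SE 0.53) and TNFAIP6 (1.79, SE 1.18) did not meet it and had wider errors. The TNFAIP6 value went from 0.92 without CpG replicate 1 to 3.48 without unstimulated replicate 3. With the replicate number as a block, the SE of OXTR fell to 0.22 and that of ABTB2 to 0.22. The number of genes meeting the definition was then 5 (OXTR, PTGER4, ABTB2, MKNK2 and TCFL5), beside 0.383% of all tested genes, and SLC12A4 had a Log2FC of 0.98. These values describe the contrast by which the genes were picked and support nothing. The call of MKNK2 ended in each fit that left out a MEC2 library other than CpG replicate 3, with a Log2FC of 0.81 without CpG replicate 2. It also ended with limma-voom (1.11), limma without weights (1.02), RLE scaling (1.13), library totals (1.08), edgeR's filterByExpr (1.13) and MEC2 alone (1.12). SLC12A4 lost it without CpG replicate 2 (Log2FC 0.50), unstimulated replicate 1 (1.03) or unstimulated replicate 2 (0.99), and also with limma-voom (1.04, and 1.06 with the block), limma without weights (0.99) and MEC2 alone (1.09). ABTB2 gained it without CpG replicate 3 (2.50) and with DESeq2 (2.02), and OXTR with limma-voom (1.82). OXTR, PTGER4 and ABTB2 all gained it with MEC2 alone, with no filter, and without the 4 or all 6 PCL12 libraries.

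In PCL12 the median Log2FC of the 7 genes was 0.94, beside 0.02 over all tested genes. PTGER4 (Log2FC 1.60, SE 0.54), SLC12A4 (1.05, SE 0.35) and TNFAIP6 met the DEG definition, 3 of 7 beside 0.0847% of all tested genes called as upregulated. With the block, PTGER4 and TNFAIP6 did, beside 0.144%, and SLC12A4 had a Log2FC of 0.93. TCFL5 (0.94, SE 0.34), OXTR (0.77, SE 0.79), ABTB2 (0.60, SE 0.78) and MKNK2 (0.43, SE 0.40) did not. OXTR went from 0.11 without CpG replicate 2 to 1.29 without CpG replicate 1. ABTB2 went from 0.15 without unstimulated replicate 3 to 1.44 without unstimulated replicate 2, and MKNK2 from 0.13 to 0.79 without the same libraries. Without the 4 libraries of replicates 2 and 3 that carried the MEC2 set, the Log2FC from the replicate 1 pair was 2.23 for PTGER4, 1.83 for SLC12A4, 1.31 for TCFL5, 1.10 for OXTR, 1.01 for ABTB2 and 0.64 for MKNK2. In that pair 6 of 7 genes had a log2 ratio of at least 1, beside 22.3% of all tested genes and 5.64% of those whose mean reached 1 CPM. That fit leaves 1 library in each PCL12 group, whose spread is assumed to be like that of the other groups, and SLC12A4 was the single member of the 7 that met the definition in it. PTGER4 lost the call without CpG replicate 2 (0.89), unstimulated replicate 1 (1.28) or unstimulated replicate 3 (1.40), and with limma-voom (1.46) or PCL12 alone (1.59). SLC12A4 lost it with limma without weights (0.94), without CpG replicate 1 (0.54) or without unstimulated replicate 1, 2 or 3 (1.01, 1.05 and 1.10), and TCFL5 gained it without CpG replicate 3 (1.20) or unstimulated replicate 2 (1.15).

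**Figure D3:**
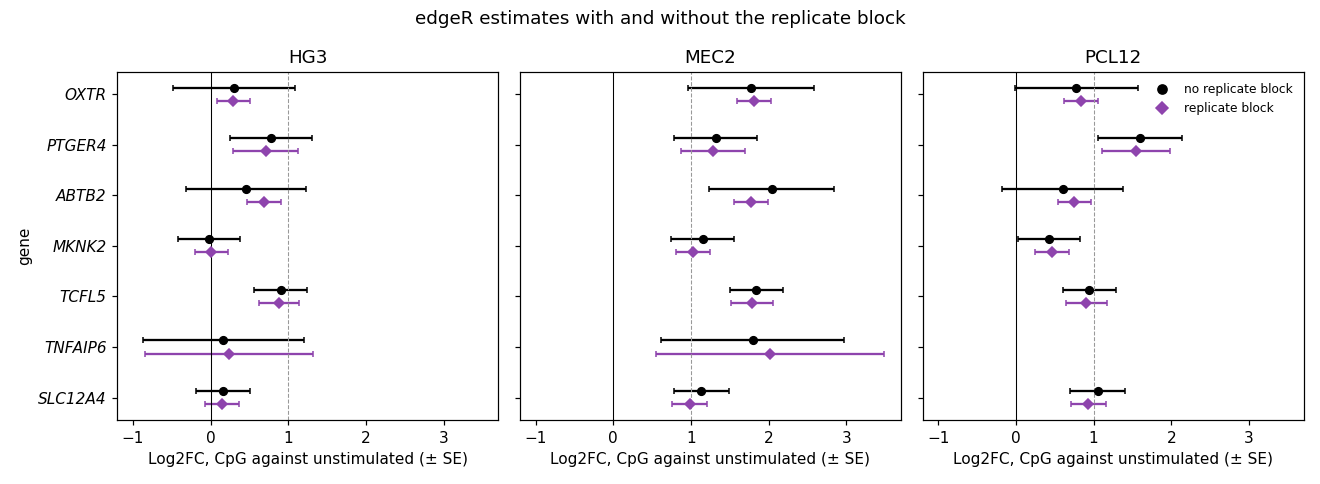
Log2FC with its SE from edgeR for CpG-stimulated against unstimulated cells in each line, as black circles without and purple diamonds with the replicate block, with a dashed line at 1. The block leaves the estimates near their place and shortens the error bars of OXTR and ABTB2, and TNFAIP6 in PCL12 is not drawn because its unstimulated libraries were all at 0.

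HG3 played no part in the choice of the genes, so its contrast was tested. None of the 7 genes met the DEG definition there (0 of 7 with edgeR, with and without the block, with DESeq2 and with each limma fit), beside 0.496% of all tested genes called in either direction without and 0.731% with the block. At an unadjusted P value under 0.05 there was 1 gene, TCFL5, beside 3.73% of all tested genes, and with the block in edgeR there were 2, TCFL5 and ABTB2, beside 3.59%. With the block in limma-voom, TCFL5 (nominal P value 0.0113) and PTGER4 (0.0213) were under 0.05 and ABTB2 (0.0761) was not, each with an adjusted p of 0.991. TCFL5 had a Log2FC of 0.90 (SE 0.34, nominal P value 0.0132, adjusted p = 1 from edgeR's quasi-likelihood test), and was higher in 3 of 3 pairs. Its 3 CpG-stimulated libraries were all above the 3 unstimulated ones, as in 2.14% of all tested genes. The exact permutation test of its CPM gave p = 0.1 (two-sided), and with 3 libraries a group no smaller value can be reached. With the replicate block, TCFL5 had a Log2FC of 0.88 (SE 0.26, nominal P value 0.000770, adjusted p = 0.210 in edgeR). Without CpG replicate 3 or unstimulated replicate 2, and without the block, the TCFL5 value was 1.07 and 1.04, and the DEG definition was met. In these 2 fits, 0.558% and 0.361% of all tested genes were called in either direction.

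For the other 6 genes, the nominal P value in HG3 was not under 0.05 in edgeR without the block. The SE of that fit is pooled over the 3 lines and is not the spread of HG3 alone. PTGER4 had a Log2FC of 0.78 (SE 0.52) and ABTB2 of 0.45 (SE 0.77). With the block, ABTB2 had 0.69 (SE 0.22, nominal P value 0.00157, adjusted p = 0.332 in edgeR), while in limma-voom its nominal P value was not under 0.05. The log2 ratios of its HG3 pairs were 0.55, 1.63 and -0.09 (SD 0.87), a spread that the SE from edgeR does not measure. Without the block, its Log2FC went from 0.10 without unstimulated replicate 2 to 1.15 without unstimulated replicate 3. OXTR had a Log2FC of 0.29 (SE 0.78), and with the block 0.29 (SE 0.21, nominal P value 0.163, adjusted p = 1 in edgeR), higher in 3 of 3 pairs. The mean level of an OXTR pair spanned a log2 range of 0.55 in HG3 and 3.55 in PCL12. SLC12A4 had a Log2FC of 0.16 (SE 0.35), TNFAIP6 of 0.16 (SE 1.03) and MKNK2 of -0.02 (SE 0.40). The adjusted p was 1 for each of the 7 genes in edgeR without the block, and exact permutation tests of the CPM of these 6 genes gave p values of 0.2 to 1 (two-sided). The median Log2FC of the 7 genes was 0.29, beside 0.00 over all tested genes. Whether the response differs between HG3 and the other lines was not tested, since the genes were picked for a rise in those lines.

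The level of each gene in the PCL12 libraries was also set against its mean in MEC2 under the same treatment, since the MEC2 set stood at 29.0% to 31.3% there. Unstimulated OXTR was at 6.91% of the MEC2 level in replicate 1 and at 83.0% and 86.8% in replicates 2 and 3, above the share of the MEC2 set. After CpG its shares were 4.34%, 51.1% and 33.2%. PTGER4 lay at 16.9%, 58.2% and 24.5% without and at 31.9%, 72.3% and 17.2% with CpG. TNFAIP6 after CpG stood in replicates 1, 2 and 3 at 277%, 389% and 192% of its MEC2 level, and SLC12A4 at 253%, 107% and 116%. For these 2 genes every CpG-stimulated PCL12 library was above the MEC2 mean, but the ranges of the 2 lines overlapped.

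**Figure D4:**
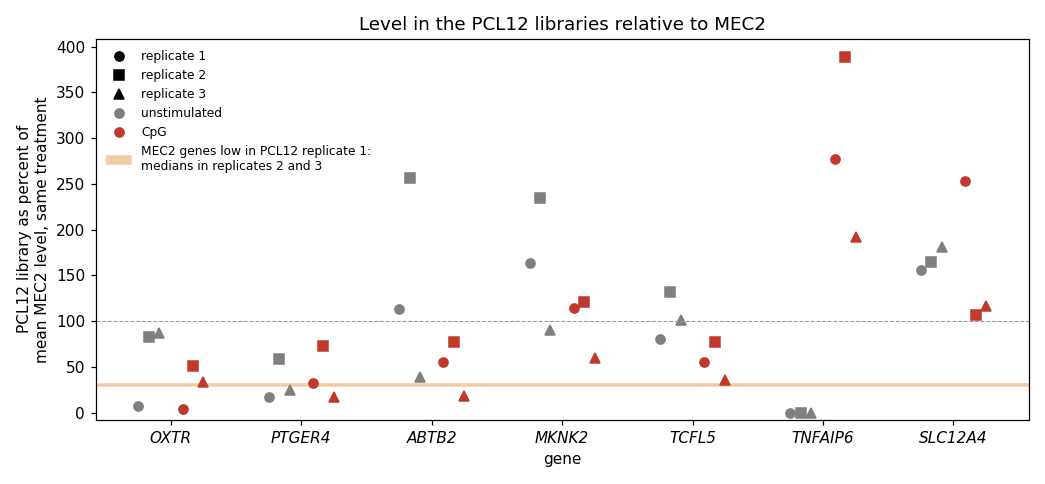
Level of each gene in the single PCL12 libraries as a percentage of its mean level in the 3 MEC2 libraries of the same treatment, grey for unstimulated and red for CpG-stimulated, with symbols for the replicate. The shaded band, 29.0% to 31.3%, marks the medians of the 45 MEC2 genes in PCL12 replicates 2 and 3, and OXTR lies below the band in replicate 1 and above it in replicates 2 and 3.

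Likeness of pattern was described by Pearson's correlation of log2 CPM over the 18 libraries, which share cell lines and replicate series. Among genes whose mean reached 1 CPM, ABTB2 was most like KDM2B (r = 0.959) and RELB (0.915), and MKNK2 most like IER5 (0.955) and KDM6B (0.951). OXTR was followed most closely by ABCA6 (0.925) and ZNF256 (0.924), and TNFAIP6 by TLL2 (0.903) and AL157394.1 (0.848). The genes closest to SLC12A4 were IKBKE (0.872) and DENND3 (0.860), those closest to PTGER4 were TNF (0.871) and SWAP70 (0.863), and those closest to TCFL5 were ZC3H12A (0.822) and JPH4 (0.818). Within the 7 genes, ABTB2 and MKNK2 had the highest correlation (0.785), followed by OXTR and PTGER4 (0.730), and OXTR and SLC12A4 had the lowest (-0.326).

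Relatives of the 7 genes met the DEG definition in MEC2 (2 genes) and HG3 (1 gene), larger shares than over all tested genes. These shares rest on few genes, and the lists were chosen with earlier results known. From 8 lists drawn up by known function, with 110 symbols besides the members, 106 genes were tested, of which 2 met it in MEC2, 1 in HG3 and 0 in PCL12 (edgeR without the block), beside 0.251%, 0.496% and 0.116% of all tested genes. With the block the counts were 2, 1 and 0, beside 0.555%, 0.731% and 0.242%. At an unadjusted P value under 0.05 there were 5, 4 and 5 of them, beside 2.46%, 3.73% and 2.09% of all tested genes, and DESeq2 likewise called 0 in PCL12. In MEC2, 1 of 16 genes of prostaglandin reception and metabolism met the definition, PTGIR, the receptor for prostacyclin. It held 9.31, 9.39 and 7.89 CPM without and 13.7, 53.3 and 13.4 CPM with CpG (Log2FC 1.60, SE 0.47, adjusted p = 1 in edgeR, 0.00194 with the replicate block in edgeR and 0.306 with it in limma-voom). CpG replicate 2, the library rich in mitochondrial counts, held most of that change, and the Log2FC was 0.62 without it. The call also ended without unstimulated replicate 1 (1.60) or 3 (1.52), with limma-voom (1.37) and with limma without weights (1.27).

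Of 14 bHLH factors and their inhibitors, ID3, an inhibitor of bHLH factors, was downregulated in MEC2. It went from 79.8, 74.2 and 39.1 CPM to 44.8, 19.2 and 31.0 CPM (Log2FC -1.02, SE 0.32, adjusted p = 1 in edgeR, 0.00642 with the block in edgeR and 0.279 with it in limma-voom). The call ended without CpG replicate 2 (Log2FC -0.76) or 3 (-1.01) and without unstimulated replicate 1 (-0.87) or 2 (-0.91), and with MEC2 alone (-1.02). In PCL12, ID3 had 32.9, 29.7 and 22.2 CPM without and 10.7, 15.2 and 19.1 CPM with CpG, lower in 3 of 3 pairs and without overlap (Log2FC -0.91, SE 0.32, adjusted p = 1 in edgeR, 0.0974 with the block), which missed the definition by its size, while the MEC2 groups overlapped. In HG3, SLC12A8, 1 of 13 tested cation-chloride cotransporters and WNK-pathway kinases, met the definition, with counts of 24, 26 and 19 in unstimulated and 12, 10 and 10 in stimulated libraries (Log2FC -1.24, SE 0.36, adjusted p = 1 in edgeR). Unstimulated replicate 2, with 20.2% mitochondrial counts, had the highest CPM of the 3, and without that library the Log2FC was -0.70 and the call ended. It also ended with limma-voom (-1.04, and -1.17 with the block) and with HG3 alone (-1.30). None of the tested genes among 18 of the cAMP response, 7 of oxytocin and vasopressin, 13 of MNK and cap binding, 8 BTB proteins and 17 of hyaluronan met the definition in any line (0 with edgeR, with and without the block). In edgeR without the block the smallest nominal P values of these lists in MEC2 belonged to CRTC2 (0.0170, Log2FC 0.72), AVPR1A (0.102, with 6 counts in unstimulated replicate 1 and 0 in the other MEC2 libraries), MAP2K6 (0.126, Log2FC -0.49), BTBD3 (0.0354, Log2FC -2.88) and CD44 (0.0430, Log2FC 0.69). With the block they belonged to CREB3L1 (0.00235, Log2FC 0.99), CD38 (0.0714), EIF4EBP1 (0.0414), RHOBTB2 (0.000765, Log2FC -0.70) and CD44 (0.00138). The MEC2 pairs of CRTC2 had log2 ratios of 0.42, 1.32 and 0.09, highest in replicate 2, whose CpG library was rich in mitochondrial counts. BTBD3 had 6, 34 and 20 counts without and 2, 0 and 5 with CpG in MEC2.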

How the data were processed

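RNA of 18 samples was sequenced as single reads. The authors deposited 1 table of raw counts for 56609 gene symbols without normalization. Per the methods, reads of a stranded reverse library were trimmed and aligned to hg38, and the submitters' processing notes name FastQC, MultiQC, Trimmomatic, STAR and featureCounts. Annotation and duplicate handling are not given in the sources used here. The labels name a Lexogen QuantSeq kit, so levels were not compared between genes.

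Counts were TMM-scaled and fitted in edgeR 4.0.16 (R 4.3.3), with 1 mean for each of 6 groups, robust quasi-likelihood dispersions, 12 residual degrees of freedom and Benjamini-Hochberg adjustment over 31872 genes. Each gene symbol was used as its row names it. Alternatives used limma 3.58.1 and DESeq2 1.42.0, other scalings and filters, and each library left out. Python 3.11.15 was used for CPM, exact permutation tests and plots. The edgeR fits with and without the block were also run on simulated counts, whose outcome is not reported here. Those counts had no replicate effect and no spread particular to a line, so the run does not cover either. Positions are those of GENCODE release 44.

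The series description pairs 1 stimulated with 1 unstimulated sample per replicate. After removal of group means, same-numbered libraries correlated at 0.212 to 0.480 in HG3, 0.494 to 0.607 in PCL12, and 0.189, -0.0133 and 0.611 in MEC2.

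The 7 genes and 8 lists were chosen with earlier results of these data known. Named were the 7 genes, list genes meeting the DEG definition and for each member its 2 most correlated genes. In lists with no gene meeting the definition, the gene with the smallest P value in MEC2 was named, without and with the block. Of the 110 list symbols, 2 (ABTB3 and CEMIP2) were not matched.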

Additional observations from a re-analysis of the deposited data

Results flagged for a closer look

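PTGIR, the prostacyclin receptor, had log2 ratios of opposite sign in the cell lines: every replicate pair was lower after CpG in HG3 (mean log2 ratio -0.23) and higher in MEC2 (mean 1.27) and PCL12 (mean 0.45, and 0.72 in PCL12 replicate 1). The first HG3 pair differed little, with 13.7 CPM in both libraries. In the unpaired fit, the Log2FC in HG3 was -0.26 with all libraries and 0.18 without unstimulated replicate 2, which had 20.2% mitochondrial counts, while its CpG partner stayed in. The third HG3 pair had a log2 ratio of -0.30. In MEC2 it was 1.60 with all libraries and 0.62 without CpG replicate 2, which had 19.7% mitochondrial counts. In edgeR, the difference of the Log2FC between MEC2 and HG3 was 1.86 (nominal P value 0.00958, adjusted p = 1.00), and that between PCL12 and HG3 was 0.67 (nominal P value 0.311, adjusted p = 1.00). PTGIR was singled out for this difference and for its call in MEC2, so these P values are no independent evidence of it.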

How the results depend on the processing

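A total of 12 other settings in HG3 and MEC2 and 11 in PCL12, besides leaving out single libraries, were compared. The fitted Log2FC of the 7 genes stayed above 0 in all of them in MEC2 and PCL12. In HG3, MKNK2 changed sign, from -0.02 to 0.0045 with limma-voom, 0.0098 with limma without weights, 0.0098 with the replicate block, 0.046 with library totals and 0.0072 with HG3 alone, and it spanned -0.29 to 0.34 without single libraries. TNFAIP6 in HG3 spanned -0.29 to 0.56 without single libraries. TCFL5 in HG3 stayed between 0.87 and 0.97 over the 12 settings, with an adjusted p of 0.210 to 1. The number of the 7 genes meeting the DEG definition in MEC2 was 3, against 2 with limma-voom, RLE scaling, library totals or edgeR's filterByExpr, 4 with DESeq2 or MEC2 alone, 5 with the replicate block in edgeR and in limma-voom, 1 with limma without weights, and 6 with no filter, without the 4 PCL12 libraries of replicates 2 and 3, or without all 6 PCL12 libraries (chosen after seeing the data), and 1 to 4 without single libraries. Of all tested genes, 0.182% were called as upregulated in MEC2, against 0.362% with no filter, 0.204% without the 4 or all 6 PCL12 libraries, 0.154% to 0.602% over the 12 settings and 0.0951% to 0.438% without single libraries. In PCL12 these shares were 0.0847%, against 0.0604% to 0.515% and 0.0403% to 0.155%. In PCL12 the number of the 7 genes was 3, against 2 with limma-voom, limma without weights, the replicate block in edgeR or PCL12 alone, and 1 to 4 without single libraries. In HG3 it was 0, against 1 without CpG replicate 3 or without unstimulated replicate 2. In these 2 fits, 0.558% and 0.361% of all tested genes were called in either direction. Of the 106 listed genes, 1 met the definition in HG3, against 0 with the replicate block in limma-voom or with HG3 alone, 2 with no filter or without all 6 PCL12 libraries, and 0 to 2 without single libraries. In MEC2 it was 2, against 1 with limma-voom, limma without weights or MEC2 alone, 4 with the replicate block in limma-voom, and 0 to 2 without single libraries. In PCL12 it was 0, against 1 with limma without weights and 0 to 2 without single libraries. The cause of these differences was not tested. The replicate block takes the level of a pair out of the spread in all 3 lines at once, since the dispersion of a gene is shared. For OXTR the mean level of a pair spanned a log2 range of 0.18 in MEC2 and 3.55 in PCL12. The block changed no call of a listed gene in edgeR. With 3 libraries in a group, no exact permutation p can pass 0.05, and TNFAIP6 is limited by its few counts.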
